A study of Homo sapiens with 16 samples.

Results

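The comparison described here is CL against CC in the zdna2 cells of an RNA sequencing study of U2OS, a human osteosarcoma cell line. Its members were chosen by their labels: 2 CL libraries and 2 CC libraries that carry the number zdna2, which makes 4 of the 16 libraries of the series. The genotype labels are zdna2_CL for the CL libraries and zdna2_CC for the CC libraries, and total RNA was extracted with Trizol in both. The labels spell out neither CL nor CC, state no treatment, and do not say whether the cells are 1 clone, so each difference is given as CL over CC. The other 12 libraries carry the numbers zdna1, zdna3 and zdna4, each with its own 2 CL and 2 CC libraries. Nothing says that the replicates came from different cultures; p-values then measure only the spread between these libraries, which may be technical.

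The series title names MYC, FACT and Z-DNA. Z-DNA is a left-handed conformation of the DNA helix, which alternating purines and pyrimidines take up most readily when the DNA is negatively supercoiled, as it is behind a moving RNA polymerase. FACT, the dimer of SUPT16H and SSRP1, is a histone chaperone that takes nucleosomes apart ahead of the polymerase and rebuilds them behind it. MYC is a transcription factor that binds DNA with its partner MAX, and topoisomerases relieve supercoiling.

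Reads assigned to human genes numbered 137628 and 168213 in the CL libraries and 118470 and 124555 in the CC libraries, within the 39335 to 310187 of the whole series. Levels are in CPM, reads scaled to a common total of human-gene reads with TMM factors, and 1 read was worth 5.72 to 8.11 CPM in zdna2. SPARC and COL1A1, expressed in cells of the bone lineage, lay at 684 and 716 CPM and at 635 and 698 CPM in the CL libraries, against 673 and 695 CPM and 592 and 688 CPM in the CC libraries, while 4 of the 12 bone lineage markers, with SP7 and BGLAP among them, had 0 reads in all 4 libraries. The 12 blood cell markers summed to 6.98 and 5.72 CPM in CL and 24.3 and 7.64 CPM in CC, and 9 of them had 0 reads. The 12 epithelial markers summed to 642 and 698 CPM in CL and 730 and 604 CPM in CC, nearly all of it KRT8 and KRT18, and 6 of them had 0 reads.

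Few human genes differed between the arms. Of 4632 genes tested, those whose mean over the series reached 50 CPM, 8 passed the test (limma on log2 of CPM plus 10, Benjamini-Hochberg adjusted p under 0.05), which is 0.173% of the genes tested, and these were 4 higher in CL (0.0864%) and 4 lower in CL (0.0864%). The higher genes were RN7SL1, RPPH1, RMRP and COL27A1, and the lower ones LDHA, NDRG1, H1-2 and AHNAK. Without adjustment, 305 genes had p under 0.05, which is 6.58% of those tested (3.2% higher and 3.39% lower in CL). On the recovered reads, edgeR's quasi-likelihood test called 9 genes (0.194%), 7 of them among the 8, and DESeq2 called RN7SL1, RPPH1 and RMRP (0.0648%). The median log2 CL over CC of all tested genes was -0.0051, and their middle 90% lay between -0.63 and 0.64. The standard error depended on the level: its median was 0.43 among the 1932 genes at 50 to 100 CPM and 0.11 among the 55 genes at 1000 CPM or more, and 5 of the 8 genes came from those 55. With equal weights for all libraries in place of weights estimated per group, 0 genes passed and 110 had an unadjusted p under 0.05.

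**Figure D1:**
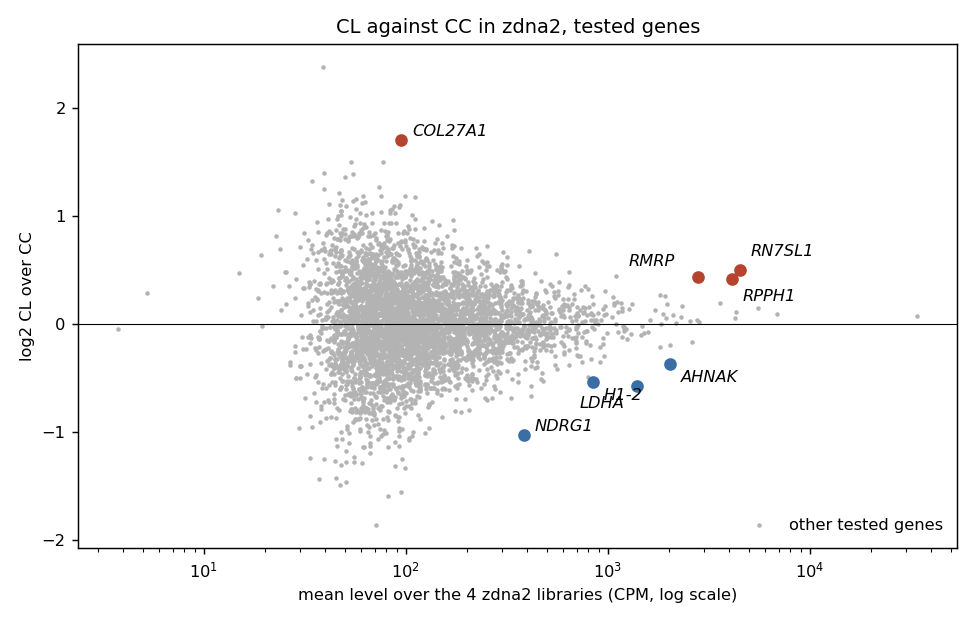
Each point is a tested human gene, with its mean CPM over the 4 zdna2 libraries on a log axis and its log2 CL over CC on the vertical axis; the 8 genes that passed the test are coloured and named. The spread narrows to the right, and 5 of the 8 lie at 1000 CPM or more.

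The RNAs that were higher in CL were mostly short noncoding RNAs made by RNA polymerase III. RN7SL1 is a gene of the 7SL RNA, the scaffold of the signal recognition particle, which delivers secreted and membrane proteins to the endoplasmic reticulum. The gene lies on chromosome 14 at positions 50053298 to 50053596 on the plus strand of hg19. It stood at 5152 and 5364 CPM in the CL libraries, against 3959 and 3506 CPM in the CC libraries, or 738 and 937 reads against 488 and 459. Both CL values lay above both CC values, and the mean was 5258 ± 150 CPM in CL and 3733 ± 320 CPM in CC (SD, n = 2 each). The log2 difference was 0.50 (SE 0.067, limma adjusted p = 2.75e-06), and RN7SL1 passed in 30 of 31 alternative settings, the exception being equal library weights (limma adjusted p = 0.0726).

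RN7SL2, a near-identical copy of the 7SL gene, had 5577 and 6063 CPM in CL and 5144 and 5386 CPM in CC, a log2 difference of 0.14 (SE 0.063) that did not pass (limma adjusted p = 0.697). Unique alignment cannot fully tell the copies apart. Their summed level was 10729 and 11427 CPM in CL and 9102 and 8892 CPM in CC, so the CL libraries lay above the CC libraries for the pair as well.

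RPPH1 is the RNA subunit of RNase P, which cuts the 5′ leader from precursor tRNAs. It lies on chromosome 14 at positions 20811230 to 20811570 on the minus strand and had 4775 and 4614 CPM in CL, against 3472 and 3575 CPM in CC. The log2 difference was 0.41 (SE 0.070, limma adjusted p = 0.000417), and the groups did not overlap. RMRP is the RNA of the related enzyme RNase MRP, which takes part in processing the ribosomal RNA precursor. It lies on chromosome 9 at positions 35657748 to 35658015 on the minus strand and had 3078 and 3315 CPM in CL, against 2353 and 2376 CPM in CC. Its log2 difference was 0.43 (SE 0.077, limma adjusted p = 0.000983), again with both CL libraries above both CC libraries. The call of RPPH1 was lost without the first CC library (limma adjusted p = 0.0513) or the first CL library (limma adjusted p = 0.144). That of RMRP was lost without the first CC, the second CC or the second CL library (limma adjusted p = 0.0582, 0.0539 and 0.207).

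Of the 20 RNAs on the list of polymerase III and RNA processing RNAs, 8 reached the filter of 50 CPM. In zdna2, 9 of the 20 had 0 reads, among them the U6 gene RNU6-1, and why was not tested. Of the 8, 3 passed as higher and none as lower, against 0.0864% each way among all tested genes. The log2 difference was above 0 in 6 and below in 2, with a median of 0.28, against 2289 and 2343 of all 4632. RNU6ATAC, among the 6, overlapped at 55.8 and 28.6 CPM in CL and 8.11 and 38.2 CPM in CC. RN7SK, the RNA that holds the elongation factor P-TEFb inactive, was the most abundant of the 8. It lay at 34043 and 35826 CPM in CL and 34082 and 32589 CPM in CC, so its arms overlapped. RNY1, a Y RNA, had 440 and 395 CPM in CL and 381 and 504 CPM in CC, and RNA5S9, a 5S ribosomal RNA gene, had 62.8 and 68.7 CPM in CL and 81.1 and 84.0 CPM in CC. The protein partners were tested from lists of their own. Of the 7 tested signal recognition particle proteins and receptor genes and the 15 tested RNA polymerase III subunits and factors, none passed, and the medians were -0.015 and 0.027. Of the 11 RNase P and RNase MRP proteins only POP4 was tested, at 41.9 and 80.1 CPM in CL and 114 and 53.5 CPM in CC. The 7 tested spliceosomal RNAs, most of them made by RNA polymerase II, had a median of -0.00030 with none called. RNU4-2, the most abundant of the 7, stood at 2632 and 2536 CPM in CL and 2507 and 2582 CPM in CC. Of the 18 spliceosomal and U7 RNAs counted, 11 had 0 reads in all 4 zdna2 libraries, RNU1-1 and RNU2-1 among them.

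**Figure D2:**
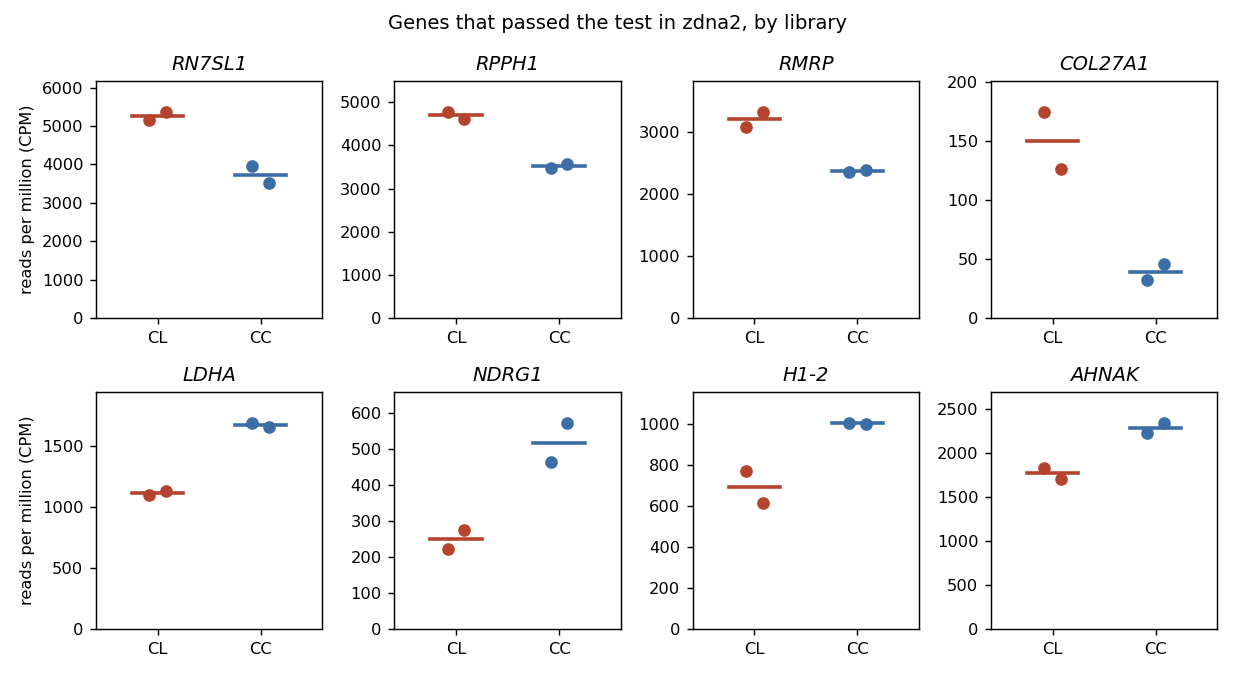
CPM of the 8 genes that passed the test, each panel with its own axis from 0; points are libraries, CL on the left and CC on the right, and lines are means of n = 2. In every panel the CL libraries lie on 1 side of the CC libraries; COL27A1 stands at 175 and 126 CPM in CL and 32.5 and 45.8 CPM in CC.

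The largest difference among the genes that passed was in COL27A1, which encodes a fibrillar collagen chain found mostly in cartilage. The gene spans positions 116917817 to 117074791 on the plus strand of chromosome 9. It was read 25 and 22 times in the CL libraries and 4 and 6 times in the CC libraries, so its levels were 175 and 126 CPM in CL and 32.5 and 45.8 CPM in CC. The mean was 3.84 times as high in CL, and the log2 difference was 1.70 (95% interval 1.04 to 2.36, limma adjusted p = 0.00297). These are few reads: the call was lost without the first CC library (limma adjusted p = 0.207) or the first CL library (limma adjusted p = 0.593), and with DESeq2 (adjusted p = 0.689). The 12 libraries of the other numbers had 62.1 to 264 CPM, so the CL values lay inside that range and the CC values below it.

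COL27A1 was the only one of 31 tested genes of collagens and the extracellular matrix to pass, and the median of the list was -0.035. THBS1, the matrix glycoprotein thrombospondin 1, had 1291 and 1237 CPM in CL and 909 and 947 CPM in CC, with a log2 difference of 0.44 (SE 0.11) that did not pass over all genes (limma adjusted p = 0.0817) and did pass when only genes of at least 200 CPM were tested. FN1, fibronectin, had 1654 and 1700 CPM in CL and 1882 and 2009 CPM in CC. The members with unadjusted p under 0.05 thus lay on both sides, 4 higher and 5 lower in CL of the 31 tested. Among all tested genes 3.2% were higher and 3.39% lower at that threshold.

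On the lower side stood a glycolytic enzyme and a gene known for its rise in hypoxia. LDHA, the lactate dehydrogenase chain that turns pyruvate into lactate, spans positions 18415936 to 18429972 on the plus strand of chromosome 11. It had 1103 and 1134 CPM in CL, against 1696 and 1658 CPM in CC, or 158 and 198 reads against 209 and 217. The replicates were close together and the arms did not overlap, with means of 1118 ± 21.7 CPM in CL and 1677 ± 26.7 CPM in CC (SD, n = 2 each). The log2 difference was -0.58 (SE 0.11, limma adjusted p = 0.00297). Its size moved little without any 1 zdna2 library, -0.56 to -0.60, but the call was lost each time, with limma adjusted p between 0.0924 and 0.353. Both CC values lay above the 1070 to 1606 CPM of the 12 libraries of the other numbers, and both CL values lay inside that range.

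HIF1, the transcription factor of the hypoxia response, is known to bind the core ACGTG or GCGTG, and MYC with MAX binds the E-box CACGTG, which contains ACGTG. RefSeq (GRCh38.p14) gives LDHA a pair of promoters, and the upstream one is shown, chosen after its matches were seen. The other holds 1 GCGTG and 1 CGCGCG, and neither ACGTG nor CACGTG. The window runs from 250 bases before to 50 bases after the start, at chr11:18394313-18394612 on the plus strand, and capitals mark matches of ACGTG and GCGTG on either strand.
LDHA promoter: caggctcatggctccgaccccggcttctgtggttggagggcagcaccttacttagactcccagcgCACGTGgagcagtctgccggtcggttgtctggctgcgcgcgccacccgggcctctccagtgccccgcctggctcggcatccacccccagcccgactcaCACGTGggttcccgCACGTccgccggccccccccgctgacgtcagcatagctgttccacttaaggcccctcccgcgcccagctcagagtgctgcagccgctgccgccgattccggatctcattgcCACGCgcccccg
ACGTG matched 5 times, and 4 of those matches are the strands of the 2 CACGTG palindromes, at -185 and -87 from the start. GCGTG matched once, at 39, on the opposite strand. Of all 35116 promoters in the table, 21.4% hold ACGTG, 36.5% hold GCGTG and 7.26% hold CACGTG, counted on both strands. Among the 5670 promoters matched to tested genes these shares are 26.9%, 50.3% and 9.95%. The same window holds 1 CGCGCG, an alternating run able to take the Z form, at -150, and 16.4% of all promoters and 29.0% of those of tested genes hold one. Only CGCGCG and TGTGTGTG were searched as alternating runs. Longer mixed runs of purines and pyrimidines were not counted, and both LDHA windows hold such runs. A match of letters is a description and shows no binding.

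NDRG1, which hypoxia and differentiation are known to raise in many cell types, spans positions 134249418 to 134309495 on the minus strand of chromosome 8. It had 223 and 275 CPM in CL, against 462 and 573 CPM in CC, from 32 and 48 reads against 57 and 75. CL was at 0.481 of the CC mean, without overlap, and the log2 difference was -1.03 (SE 0.21, limma adjusted p = 0.00594). The call was lost without the first CL library (limma adjusted p = 0.615), the first CC library (limma adjusted p = 0.0513) or the second CC library (limma adjusted p = 0.312).

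Of 15 tested glycolysis enzymes, LDHA alone passed, and the median log2 difference was -0.15, with 8 members below 0 and 7 above. PGK1 and TPI1, which act in the middle of the pathway, had 363 and 401 CPM and 377 and 361 CPM in CL, against 544 and 550 CPM and 495 and 451 CPM in CC; neither passed (limma adjusted p = 0.406 and 0.697). GAPDH, the most abundant, had 4405 and 4557 CPM in CL and 4324 and 3972 CPM in CC, and ENO1 had 2150 and 2210 CPM in CL and 2158 and 2192 CPM in CC. Signs therefore lay on both sides, but the 4 members with unadjusted p under 0.05 were all lower in CL, as were 3.39% of all tested genes. CL lay below CC without overlap in 5 of the 15 and above it in 2, against 18.2% and 16.7% of all tested genes. The sum over the list was 12686 ± 162 CPM in CL and 13547 ± 576 CPM in CC (SD, n = 2 each).

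Of 16 tested genes known to be induced by hypoxia, NDRG1 alone passed, 11 were below 0, and the median was -0.39. P4HA1, a collagen prolyl hydroxylase subunit, had 69.8 and 63.0 CPM in CL and 122 and 176 CPM in CC (limma adjusted p = 0.321). LOX, which cross-links collagen, had 41.9 and 5.72 CPM in CL and 64.9 and 76.4 CPM in CC (limma adjusted p = 0.477). SLC2A3, a glucose transporter, lay the other way with 105 and 63.0 CPM in CL and 40.6 and 38.2 CPM in CC (limma adjusted p = 0.804), and VEGFA, an angiogenic growth factor, had 154 and 143 CPM in CL and 170 and 229 CPM in CC. CL lay below CC without overlap in 8 of the 16, against 18.2% of all tested genes.

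H1-2 encodes a linker histone, which sits where DNA enters and leaves the nucleosome. Its gene, with no intron, lies on chromosome 6 at positions 26055968 to 26056699 on the minus strand of hg19. It had 768 and 613 CPM in CL, against 1006 and 1001 CPM in CC, without overlap. The log2 difference was -0.54 (SE 0.12, limma adjusted p = 0.0351), and the call was lost without any 1 of the 4 zdna2 libraries, with limma adjusted p between 0.0728 and 0.965. Both CL values lay below the 789 to 1643 CPM of the 12 libraries of the other numbers, and both CC values inside that range.

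The RefSeq promoter of H1-2 (GRCh38.p14, chr6:26056421-26056720, minus strand) is shown as that of the 1 histone gene that passed, with capitals marking CCAAT and TATA.
H1-2 promoter: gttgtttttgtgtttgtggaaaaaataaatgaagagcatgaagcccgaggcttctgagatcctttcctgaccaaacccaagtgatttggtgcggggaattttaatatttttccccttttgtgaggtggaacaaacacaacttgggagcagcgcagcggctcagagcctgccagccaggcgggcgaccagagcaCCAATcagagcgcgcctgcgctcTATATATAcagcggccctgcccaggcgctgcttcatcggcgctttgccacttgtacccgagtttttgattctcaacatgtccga
It holds 1 CCAAT at -57 and the run TATATATA from -34, which counts as 3 overlapping TATA matches; 34.6% of all promoters hold CCAAT and 29.2% hold TATA, counted on both strands, against 34.7% and 19.3% of those of tested genes. Neither hypoxia core lies in this window. CGCGCG is absent too, but the window holds GCGCGC, an alternating run of the same length that was not searched.

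Histone genes lay mostly below 0. The list of replication-dependent and linker histones has 62 genes, of which 31 were tested, and H1-2 alone passed. Unadjusted p was under 0.05 in 10, all of them lower in CL, against 3.39% lower among all tested genes. A log2 difference below 0 was found in 27 of the 31. The median of the 31 was -0.29, against -0.0051 over all tested genes. CL lay below CC without overlap in 15 of the 31, against 18.2% of all tested genes. H1-4, another linker histone, had 747 and 859 CPM in CL and 949 and 1108 CPM in CC (log2 difference -0.35, limma adjusted p = 0.477). H2BC5, an H2B gene, had 279 and 269 CPM in CL and 365 and 428 CPM in CC (limma adjusted p = 0.516), and H2AC14, an H2A gene, had 55.8 and 68.7 CPM in CL and 146 and 99.3 CPM in CC (limma adjusted p = 0.572). H4C5, at the other end, had 398 and 326 CPM in CL and 365 and 283 CPM in CC. Summed over the list, histone RNA stood at 6617 and 6624 CPM in CL and 8267 and 8205 CPM in CC, and the CL sums lay below the 7220 to 13723 CPM of the 12 other libraries. The median of the list was 0.17 in zdna1, 0.34 in zdna3 and 0.14 in zdna4, with no member called in any of them. Histone genes are alike in sequence, so unique alignment can split their reads, and replication-dependent histone RNA is made in S phase.

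**Figure D3:**
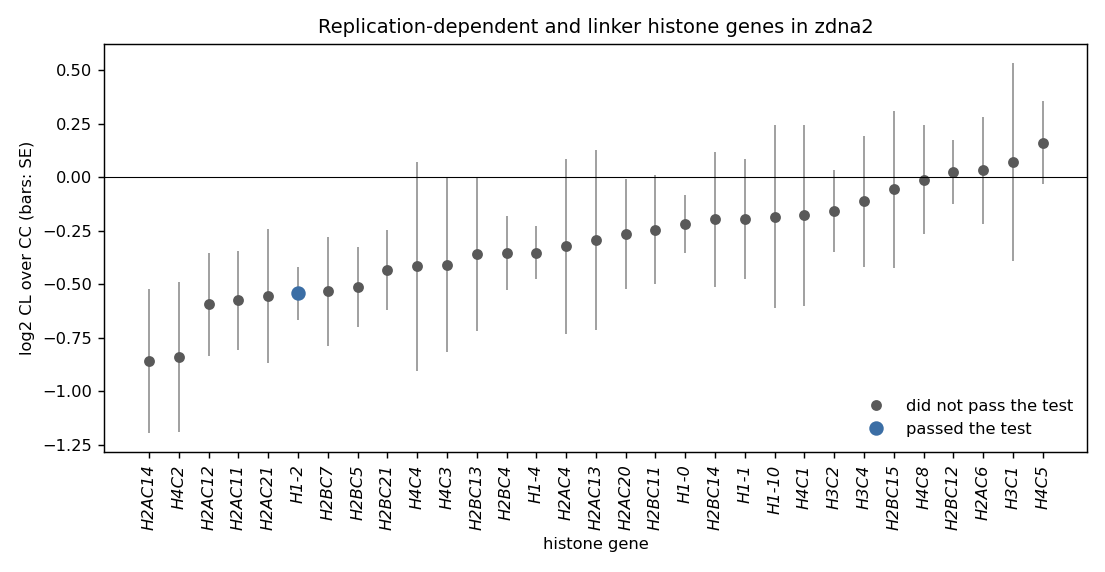
Log2 CL over CC of the 31 tested histone genes in zdna2, ordered by value; bars are standard errors of the fit. Of the 31, 27 lie below 0 and only H1-2, in blue, passed the test.

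The lists of the cell cycle gave these values beside the histones. Of 44 tested mitotic genes none passed and the median was -0.24. Below 0 lay 30 of the 44, and 2343 of all 4632 tested genes. CL lay below CC without overlap in 17 and above it in 4, against 18.2% and 16.7% of all tested genes. Unadjusted p was under 0.05 for 4 lower and 1 higher in CL, against 3.39% and 3.2% of all tested genes. The sum of the list was 7128 ± 147 CPM in CL and 8134 ± 73.1 CPM in CC (SD, n = 2 each). TOP2A, the topoisomerase of dividing cells that cuts both strands, had 384 and 412 CPM in CL and 544 and 558 CPM in CC (log2 difference -0.46, limma adjusted p = 0.560). BUB3, of the spindle checkpoint, had 48.9 and 68.7 CPM in CL and 146 and 107 CPM in CC (limma adjusted p = 0.679). SMC2, a condensin subunit, lay the other way at 181 and 252 CPM in CL and 130 and 145 CPM in CC. Of 25 tested S phase genes none passed, the median was 0.074, and their sum was 3779 ± 112 CPM in CL and 3660 ± 22.0 CPM in CC. The part of the cell cycle in the histone values was not tested.

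AHNAK, which encodes a very large scaffold protein at the plasma membrane and the actin cytoskeleton, spans positions 62201016 to 62314278 on the minus strand of chromosome 11. It had 1829 and 1706 CPM in CL, against 2231 and 2345 CPM in CC, without overlap. The log2 difference was -0.37 (SE 0.088, limma adjusted p = 0.0493), just inside the threshold. It passed in 7 of 31 alternative settings, and not with edgeR's quasi-likelihood test (adjusted p = 0.0856) nor without any 1 of the 4 zdna2 libraries (limma adjusted p between 0.225 and 0.770). AHNAK2, its relative, had 300 and 298 CPM in CL and 503 and 344 CPM in CC (limma adjusted p = 0.560).

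AHNAK was the only one of 33 tested genes of the actin cytoskeleton to pass, and the rest of the list lay mostly above 0, with a median of 0.13 and 13 genes higher in CL without overlap. CFL1, the actin-severing protein cofilin, had 747 and 750 CPM in CL and 560 and 512 CPM in CC (log2 difference 0.48, limma adjusted p = 0.321). ACTG1, cytoplasmic gamma actin, had 2017 and 2181 CPM in CL and 1720 and 1795 CPM in CC (limma adjusted p = 0.516), and FLNA, the actin cross-linker filamin A, had 3693 and 3950 CPM in CL and 3237 and 3461 CPM in CC. CL lay above CC without overlap in 16.7% of all tested genes.

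The proteins named in the series title did not differ detectably in their RNA. MYC had 440 and 343 CPM in CL and 414 and 413 CPM in CC, a log2 difference of -0.09 (95% interval -0.46 to 0.29). SUPT16H had 377 and 355 CPM in CL and 381 and 397 CPM in CC (interval -0.48 to 0.31). SSRP1 had 447 and 429 CPM in CL and 422 and 619 CPM in CC (interval -0.57 to 0.13). The intervals include 0 for all 3, with limma adjusted p = 0.984 for MYC and for SUPT16H and 0.927 for SSRP1. MAX, the partner of MYC, had the widest difference of this set at 119 and 120 CPM in CL and 81.1 and 30.6 CPM in CC, from 17 and 21 reads against 10 and 4, and it did not pass (log2 difference 1.09, limma adjusted p = 0.572). HMGB1, a DNA-bending chromatin protein, had 293 and 292 CPM in CL and 211 and 199 CPM in CC (limma adjusted p = 0.697). None of the 8 tested genes of the MYC network, of the 11 of the FACT and HMGB list or of the 41 of ribosome biogenesis passed, with medians of 0.17, 0.022 and 0.073.

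ADAR, the RNA editing enzyme whose long form binds Z-DNA and Z-RNA, had 363 and 246 CPM in CL and 333 and 328 CPM in CC (limma adjusted p = 0.980). ZBP1, the other human protein with Z-binding domains, had 0 reads in all 4 libraries, which allows a level of up to 17.2 to 24.3 CPM (3 reads per library, counting error only). TOP1, which cuts a single strand, had 286 and 195 CPM in CL and 211 and 229 CPM in CC, and TOP2B, the topoisomerase II of resting cells, had 161 and 132 CPM in CL and 251 and 191 CPM in CC (limma adjusted p = 0.763). None of the 5 tested topoisomerases passed, and their median was -0.46. DHX9, a helicase that binds double-stranded RNA, had 370 and 395 CPM in CL and 462 and 558 CPM in CC (limma adjusted p = 0.735), and none of the 8 tested genes of Z-nucleic acid and double-stranded RNA sensing passed.

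Further genes at 200 CPM or more whose arms did not overlap are given by smallest p, as values that did not pass. Among the 941 genes of that level CL lay above CC without overlap in 20% and below it in 19%, so the lack of overlap is common. On the higher side, CLIC1, a chloride intracellular channel protein, had 684 and 664 CPM in CL and 422 and 435 CPM in CC, and EWSR1, an RNA-binding protein, had 503 and 498 CPM in CL and 341 and 283 CPM in CC (limma adjusted p = 0.094 for both). GADD45A, a p53 target induced by DNA damage, had 321 and 309 CPM in CL and 170 and 206 CPM in CC (limma adjusted p = 0.477). IL6ST, the shared receptor chain of the interleukin 6 family, had 391 and 355 CPM in CL and 219 and 244 CPM in CC (limma adjusted p = 0.459). CFL1, THBS1 and LRRC59 were also on this side, with log2 differences of 0.44 to 0.71.

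On the lower side, KPNA2, an importin alpha, had 314 and 326 CPM in CL and 535 and 497 CPM in CC (log2 difference -0.67, limma adjusted p = 0.0817). CCND2, cyclin D2, had 726 and 595 CPM in CL and 909 and 947 CPM in CC, and PALLD, an actin-binding scaffold, had 391 and 384 CPM in CL and 576 and 550 CPM in CC (limma adjusted p = 0.271 for both). DDOST, a subunit of the oligosaccharyltransferase, had 140 and 155 CPM in CL and 268 and 260 CPM in CC (limma adjusted p = 0.321). RHOBTB3, PGK1, VMP1 and WASF2 complete it, with log2 differences of -0.69 to -0.51.

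The stress and growth lists gave small medians and no calls. Of 18 tested AP-1 and early response genes the median was 0.22; FOSL1 had 216 and 235 CPM in CL and 97.4 and 145 CPM in CC (limma adjusted p = 0.459), while ATF3 had 76.8 and 80.1 CPM in CL and 122 and 145 CPM in CC (limma adjusted p = 0.697). Of 15 tested p53 targets the median was 0.18, and MDM2 had 914 and 853 CPM in CL and 690 and 718 CPM in CC (limma adjusted p = 0.735). The medians were -0.14 for 11 YAP targets, 0.082 for 17 heat shock chaperones, 0.21 for 8 tubulins, 0.13 for 16 genes of cholesterol and fatty acid synthesis, and -0.077 for 7 of iron handling. They were 0.047 for 75 cytosolic ribosomal proteins, 0.18 for 46 nuclear-encoded respiratory chain genes, 0.12 for 32 proteasome subunits, 0.049 for 26 SR proteins and hnRNPs and 0.048 for 46 translation factors. They were -0.089 for 25 tRNA synthetases and ATF4 response genes, 0.027 for 19 DNA repair genes, 0.10 for 12 P-TEFb and 7SK proteins and 0.0060 for 7 nuclear long noncoding RNAs. The quartiles lay wholly above 0 for the polymerase III RNAs, the AP-1 genes and the tubulins, and wholly below 0 for the histones. For the AP-1 genes the lower quartile was only 0.0076. The filter used the mean over the series, so lists can hold members near the floor in zdna2. FOSB, on the AP-1 list, had 6.98 and 5.72 CPM in CL and 8.11 and 0 CPM in CC.

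**Figure D4:**
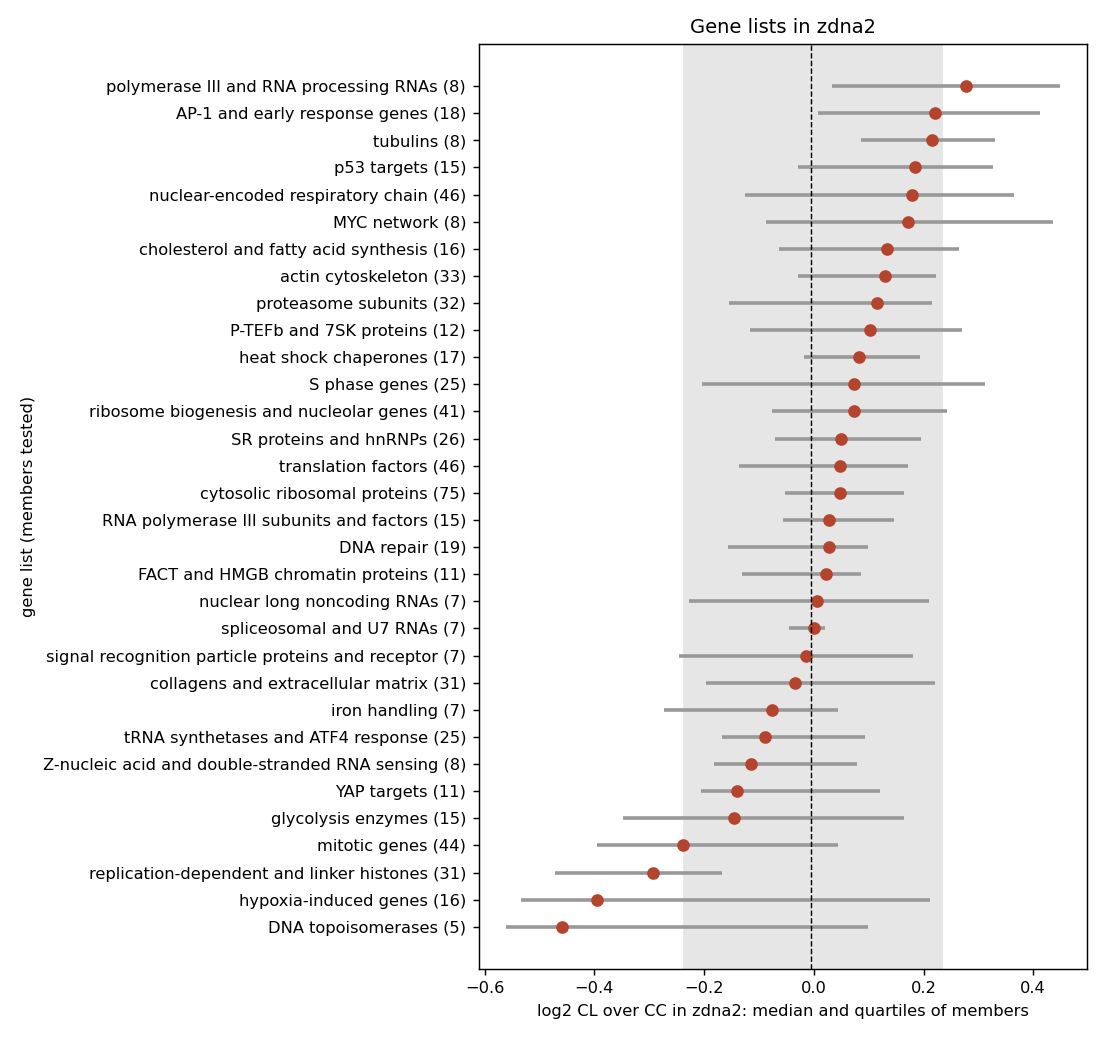
Median log2 CL over CC (points) and quartiles (bars) of each list with at least 5 tested members, with the number tested in brackets; the dashed line is the median of all tested genes, -0.0051, and the grey band their quartiles, -0.24 to 0.23. Polymerase III and RNA processing RNAs stand highest at 0.28, and histones, hypoxia-induced genes and topoisomerases lowest at -0.29, -0.39 and -0.46.

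The zdna2 files hold 1 further row, for a sequence of 190 bases with the name of the number, counted beside the human genes and called the contig here. Its reads were many: 206810 and 264638 in CL and 205523 and 224502 in CC, or 60.0% and 61.1% of all counted reads in CL and 63.4% and 64.3% in CC (95% Wilson intervals 59.9% to 60.2% and 61.0% to 61.3% in CL and 63.3% to 63.6% and 64.2% to 64.5% in CC). Per 1000 human-gene reads the contig had 1503 and 1573 reads in CL and 1735 and 1802 reads in CC, a mean of 1538 ± 49.9 in CL and 1769 ± 47.8 in CC (SD, n = 2 each). Both CL values lay below both CC values, with a CL to CC ratio of 0.870, or 0.895 on the scale as deposited. The log2 difference was -0.19 (95% interval -0.30 to -0.09), and it did not pass beside the human genes (limma adjusted p = 0.126). It passed when only the 4 zdna2 libraries were used (limma adjusted p = 5.18e-05). In the other numbers, each with its own contig, the log2 difference was -6.59 for zdna1, -4.67 for zdna3 and -3.88 for zdna4, so the CL contig of zdna2 stood far closer to its CC level. The difference in zdna2 differed from that of zdna1 by 6.40 and from the mean of the other numbers by 4.85 on the log2 scale (limma adjusted p = 2.07e-59 and 1.49e-54). The contig was fitted apart from the human genes, with its spread moderated toward that of the most abundant of them. All p-values of the contig rest on that borrowed spread. Its share differed between the replicates beyond counting noise (Fisher's exact test p = 9.23e-23 for zdna2 CL).

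The 8 genes were then followed in the other numbers, which have CL and CC libraries of their own. RN7SL1 was also higher in CL in zdna1, with a log2 difference of 1.13 (SE 0.066) at 9818 and 10393 CPM in CL and 4495 and 4739 CPM in CC, but was lower in zdna3 at -0.52 (limma adjusted p = 0.0160). RPPH1 and RMRP were higher in zdna1 too, by 0.53 and 0.70. The zdna2 difference of RN7SL1 was smaller than that of zdna1 by 0.63 on the log2 scale (limma adjusted p = 3.70e-05), a test that uses the same zdna2 libraries. For LDHA the other numbers gave 0.075, 0.12 and -0.035, none called, and the zdna2 difference was lower than that of zdna1 by 0.65 (limma adjusted p = 0.0428). NDRG1 was lower in CL in zdna4 as well, at -1.35 (SE 0.33, limma adjusted p = 0.0322), and AHNAK was higher there, at 0.73 (limma adjusted p = 0.00149). Of the 8 genes, 3 were also called in zdna1 in either direction (0.756% of all tested genes were), 1 in zdna3 (0.0864%) and 2 in zdna4 (1.17%). The call in zdna3, RN7SL1, and that of AHNAK in zdna4 had the opposite sign to zdna2. The sign was that of zdna2 in 5 of the 8 in zdna1, 3 in zdna3 and 4 in zdna4.

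**Figure D5:**
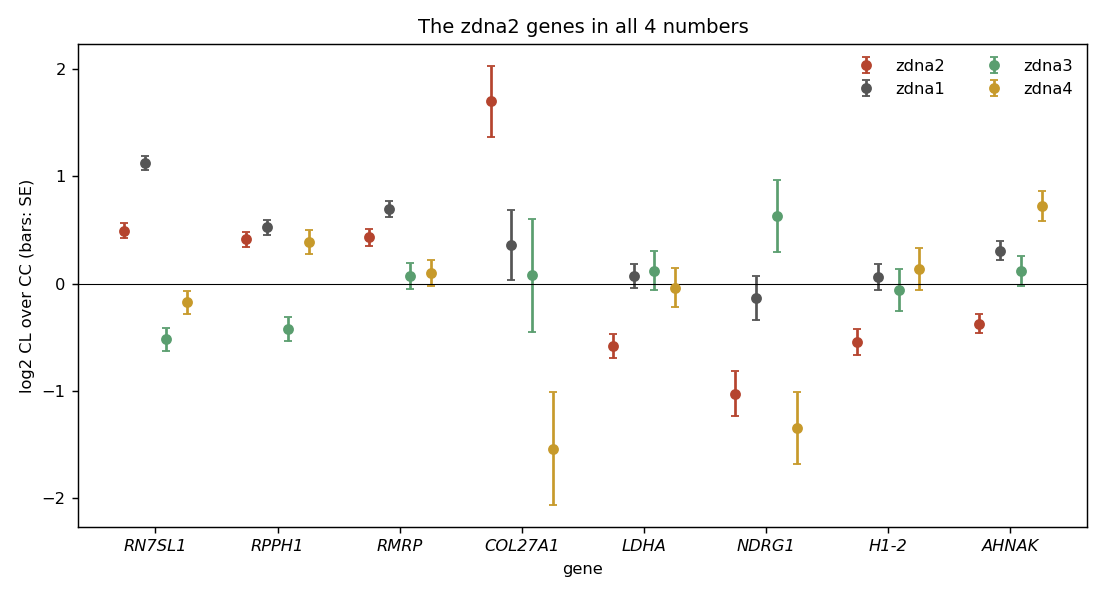
Log2 CL over CC of the 8 zdna2 genes in each of the 4 numbers; points are estimates and bars their standard errors. RN7SL1, RPPH1 and RMRP lie above 0 in zdna2 and zdna1, while LDHA lies below 0 by -0.58 in zdna2 and within 0.12 of 0 elsewhere.

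Tested over all genes, the zdna2 difference stood apart from that of zdna1 in 14 genes (0.302%), 8 higher in zdna2 and 6 lower, and from the mean of the other numbers in 17 genes (0.367%), 4 higher and 13 lower. SYNE1, which links the nucleus to the cytoskeleton, had 412 and 315 CPM in CL and 292 and 244 CPM in CC of zdna2, against 34.9 and 101 CPM in CL and 222 and 211 CPM in CC of zdna1. IGFBP5, a binding protein of insulin-like growth factors, had 112 and 143 CPM in CL and 235 and 168 CPM in CC of zdna2, against 314 and 437 CPM in CL and 88.7 and 148 CPM in CC of zdna1. The arms of SYNE1 and of IGFBP5 thus lay in opposite orders in the 2 numbers, but both genes were named because they passed this test. In zdna2 alone neither passed, with log2 differences of 0.42 (SE 0.27) for SYNE1 and -0.61 (SE 0.26) for IGFBP5. GADD45A, GNB1, YTHDC1, EWSR1, POLR2A, TRIO, TUBB, FLNC and RPL4 make up the rest of the 14 with RN7SL1, AHNAK and LDHA. All 14 also passed without the 4 zdna4 libraries. Of the 14, 3 to 7 passed without 1 zdna2 library, with 3 left without the first CL library, and 3 to 8 passed without 1 zdna1 library, again with 3 left without the first CL library. Of the 17 genes against the mean of the other numbers only PPP1R14B, an inhibitor of protein phosphatase 1, still passed without zdna4 (limma adjusted p = 0.0481); it had 112 and 137 CPM in CL and 219 and 229 CPM in CC of zdna2.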

How the data were processed

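RNA was sequenced from U2OS cells in 16 libraries. Total RNA came from a Trizol extraction and went into an Abclonal library kit, per the labels. According to the submitters' processing notes, Trim Galore 0.6.6, STAR and bedtools 2.29.2 were used, with the builds hg19 and dm6. Per the file headers, paired fragments over exons were counted with featureCounts 2.0.1 with no strand option, so overlapping and antisense genes cannot be told apart. The deposited values are a scaled signal, whole reads multiplied by 1 constant per library whose origin is not given in the sources used here. Whole reads were recovered within 0.1 read for 100% of nonzero values, to the digits given, in each library; a count test on them (edgeR) called 9 genes.

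The main test was limma 3.58.1 (R 4.3.3) on log2 of CPM plus 10. CPM used TMM factors (edgeR 4.0.16), and human genes averaging 50 CPM or more were tested. The fit had 8 group means, weights estimated per group and a mean-variance trend. Benjamini-Hochberg adjustment at 0.05 ran over all tested genes in each comparison, and tests were two-sided. A log2 difference on this scale understates the change of low genes, while folds of means carry no pseudocount. edgeR's quasi-likelihood test and DESeq2 1.42.0 on the recovered reads, other scalings, filters and pseudocounts, a replicate block and leaving out libraries were alternatives. Their effect on the 8 genes is given below.

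Gene counts of the 2 zdna2 CC libraries agreed within sampling noise (chi-square p = 0.378), but their contig shares differed (p = 5.18e-14), so they were kept as 2 libraries, and summing them was an alternative. The comparison, gene lists and members were chosen with earlier results of these data known. Named are all genes called in zdna2, then per direction enough genes of at least 200 CPM with the smallest p and no overlap to make 12, 9 genes of the series' theme (MYC and MAX, the FACT subunits, ADAR and ZBP1, and TOP1, TOP2A and TOP2B), up to 5 genes per direction whose difference stood apart from the other numbers or from zdna1, and members of lists. List members shown beyond the first few by p, among them GAPDH, ENO1, RN7SK, RNY1, RNA5S9, VEGFA, H4C5, SMC2, FN1 and FLNA, and POLR2A and RPL4, were chosen after their values were seen. Some genes that these rules name are not reported here. Positions of genes are those of the files (hg19). Promoters are RefSeq's on GRCh38.p14, not matched to hg19 positions; RN7SL1, RPPH1, RMRP and NDRG1 have none in the table used. Wilson intervals and floors hold for counting error alone, because reads are not independent molecules. Fewer cells of a kind and less RNA per cell cannot be told apart in these libraries.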

Additional observations from a re-analysis of the deposited data

Results flagged for a closer look

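The CL minus CC difference in zdna2 was set against the mean of the same difference in zdna1, zdna3 and zdna4, which share no library with zdna2, and genes are given where the difference between them passed limma's test over all genes. On the log2 scale it was higher in zdna2 for DOCK6 by 2.60, COL27A1 by 2.07, SYNE1 by 1.52 and RN7SL1 by 0.35, with adjusted p of 0.0229, 0.00884, 0.0229 and 0.0452. It was lower for PPP1R14B at -1.95, KPNA2 at -1.19, CCND2 at -0.98, AHNAK at -0.75, LDHA at -0.63 and TUBB at -0.59, with adjusted p of 0.00777, 0.00226, 0.00593, 5.36e-05, 0.0234 and 0.0133. DOCK6 had 14 and 28.6 CPM in CL and 16.2 and 15.3 CPM in CC of zdna2, while the zdna4 CC libraries had 9283 and 5177 CPM; without the zdna4 libraries its difference was 0.098 (adjusted p = 0.984).

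Against zdna1 alone the difference was higher in zdna2 for SYNE1 by 2.09, YTHDC1 by 1.93, GADD45A by 1.72, EWSR1 by 1.08, TRIO by 0.74 and FLNC by 0.56, with adjusted p of 0.000963, 0.0269, 0.00721, 0.0269, 0.0269 and 0.0269. It was lower for IGFBP5 at -2.22, GNB1 at -1.26, AHNAK at -0.68, LDHA at -0.65, RN7SL1 at -0.63 and TUBB at -0.63, with adjusted p of 0.000185, 0.0339, 0.000963, 0.0428, 3.70e-05 and 0.0196. GADD45A, for example, lay at 321 and 309 CPM in CL and 170 and 206 CPM in CC of zdna2. The contig stood apart by 4.85 from the mean of the other numbers and by 6.40 from zdna1, with each number measured on its own contig.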

How the results depend on the processing

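The 8 genes that differed in zdna2 became 3 with DESeq2 (95 at an unadjusted p under 0.05), 0 with equal library weights, 5 on the deposited scale and 3 with the CC replicates summed, the last chosen after seeing the data. They were 7 with a replicate block. Deviations of the replicates 1 from their group means had a correlation of 0.0570 between the zdna2 arms over 919 genes. This cannot decide whether replicate numbers pair the libraries, because replicates differed by little more than counting noise. Chi-square per degree of freedom was 1.01 in zdna2 CC and 1.04 in zdna2 CL. Leaving out 1 library of any number gave 1 to 9 genes, with 1 left without the first CC library, 3 without the second and 2 without the first CL library; without the second CL library 9 passed, 4 of them among the 8. THBS1, CLIC1, EWSR1 and KPNA2 passed when only genes of at least 200 CPM were tested, which gave 11 genes, 7 of them among the 8. With no filter 9 passed, only 3 of them among the 8, and at 20 CPM or more 6 passed, all among the 8. Only the 4 zdna2 libraries gave 8, sharing 6, and leaving out the 4 zdna4 libraries gave 9, sharing 7. Pseudocounts of 1 and 50 CPM gave 7 and 8, each sharing 7. Library totals and DESeq2 size factors each gave the same 8. edgeR called 9, sharing 7; the others were USP28 and HIC1, and HIC1 had 6.98 and 149 CPM in CL and 0 reads in CC.

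The 17 genes set apart from the other numbers became 1 with DESeq2, 2 with equal weights, 6 and 31 with pseudocounts of 1 and 50 CPM, 30 at 200 CPM or more and 3 with no filter. They became 217 on the deposited scale, 5 higher and 212 lower, where the median of all genes was -0.42 against -0.075. They became 1 without zdna4 and 1 with the CC replicates summed, and 1 to 57 without 1 library, with 57 reached without the second zdna4 CC library; the replicate block gave 17. The 14 against zdna1 became 3 with DESeq2, 0 with equal weights (148 at an unadjusted p under 0.05), 24 at 200 CPM or more, 2 with no filter, 7 on the deposited scale, 4 with the CC replicates summed and 3 to 15 without 1 library; the block gave 13. The cause of these shifts was not tested.

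The contig's difference passed with only the zdna2 libraries (-0.17), with a pseudocount of 50 CPM (-0.19) and without either zdna1 CL library, and ranged from -0.23 to -0.16 without 1 library. Signs turned when 1 library was left out for MYC (-0.26 to 0.088), ADAR (-0.41 to 0.13), SSRP1 (-0.49 to 0.053) and TOP1 (-0.17 to 0.37), and on the deposited scale for RN7SL1 against the other numbers (-0.074); none of these 5 passed there.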
